A study of Mus musculus with 48 samples.

Results

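Dusp1 (ENSMUSG00000024190), Dusp4 (ENSMUSG00000031530) and Spry4 (ENSMUSG00000024427) are 3 feedback inhibitors of MAP kinase signalling. They were taken by gene symbol from the 4 gene tables of a mouse cerebellum study, which together list 6143 genes. All 3 are listed in the table of Chd4 conditional knockout (cKO) against wild type (WT) and in the table of rotarod training against rest, and 0 of the 3 is listed in the Sync-TRAP tables, which call 38 genes (0.147% of the features tested) in IP cKO against IP WT and 51 genes (0.195%) in IP WT against input WT.

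Growth factors and neuronal firing activate the Ras, Raf, MEK and ERK chain of kinases, while stress mainly activates the p38 and JNK kinases. Dusp1 and Dusp4 encode nuclear phosphatases that remove the activating phosphates from MAP kinases, and their transcription is itself induced by those kinases. Spry4 encodes a Sprouty protein that acts near the membrane and limits the step from receptor tyrosine kinases to Ras and Raf. Because the kinases induce their own inhibitors, the mRNA of these genes is widely read as a trace of recent signalling.

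The groups were 4 cerebella of Chd4 cKO mice and 4 of WT mice, and 4 cerebella of WT mice trained on a rotarod (a turning rod on which a mouse keeps its balance) and 4 of WT mice left at rest in the home cage. All were taken at postnatal days 27 to 28 for messenger RNA sequencing. Chd4 is the ATPase of the NuRD chromatin remodeling complex. The sources used here do not give the Cre line, the time between training and dissection, the sex or any pooling. The 12 Sync-TRAP samples (ribosome-bound RNA or its input, day 12) hold no value for these genes here, and the 20 chromatin samples at day 22 were not analysed here.

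Values are log2 CPM, reads scaled to a common library size, as deposited by the authors. The effective depth, read from the spacing of low values, was 13720000 to 16750000 reads per library over these 16 libraries. Genes that missed an adjusted p of 0.05 in the test run by the authors are not in the tables. Each difference given here is in log2 CPM and comes from limma with its SE; its p-value was adjusted over every feature that the authors tested. A gene is said here to have risen or fallen only where that adjusted p was under 0.05. The targeted gene Chd4 fell by 0.44 ± 0.06 in cKO (limma adjusted p = 0.00199), with 7.90 to 8.06 log2 CPM in cKO libraries and 8.31 to 8.45 in WT libraries. One library stood apart among the rest samples, that of column 5: its Fos level was 3.23 log2 CPM, against 2.32 to 2.47 in the other 3. Results that rest on it are given with and without it. In bulk tissue, fewer cells of a type and less RNA per cell cannot be told apart.

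Of these genes, the RefSeq promoter table (build GRCm38.p6) held the window of Dusp1, from 250 bases before to 50 bases after the start site (chr17:26508423-26508722, minus strand). It is shown as the only window held for the 3 genes, so those of Dusp4 and Spry4 could not be compared. The window carries the letters of a cyclic AMP response element (CRE), the site bound by the activity-dependent factor CREB. Capitals mark matches to the core TGACG on either strand:
Dusp1: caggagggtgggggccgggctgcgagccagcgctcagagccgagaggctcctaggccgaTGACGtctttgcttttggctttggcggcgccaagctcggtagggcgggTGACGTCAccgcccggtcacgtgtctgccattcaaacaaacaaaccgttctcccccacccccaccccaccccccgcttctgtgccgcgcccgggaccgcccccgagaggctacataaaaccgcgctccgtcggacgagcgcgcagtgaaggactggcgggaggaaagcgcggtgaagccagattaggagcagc

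The palindrome TGACGTCA begins 143 bases before the start site and contains the core on both strands, overlapping itself. A separate TGACG begins 191 bases before it. Among the 32851 promoter windows of the same length, 1.79% held TGACGTCA and 20.8% held TGACG or its reverse complement. The E-box CACGTG lies 126 bases before the start site, a match found in 7.15% of the windows. Neither the glucocorticoid response element (0.00913% of the windows) nor the serum response element (1.63%) matched in this window. Of the 8 listed ERK transcription factor genes with a promoter in the table in the rotarod comparison, 0 held TGACGTCA in their window. With 1.79% of all windows holding it, 8 windows are too few to tell these genes from the rest. Matches to TGACG were not counted in them. These are matches of letters and do not show that a factor binds.

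Trained and resting mice were set against each other to see how a bout of motor activity alters cerebellar mRNA. Dusp1 and Spry4 rose after training, 4.48-fold and 2.52-fold. Dusp4 was 2.11-fold higher but did not pass limma. For all 3 genes, every trained library lay above every rest library, which was also so for 51.1% of the 908 genes listed. Groups of 33.8% were apart in the other direction, 84.9% in all. The authors' deposited table lists 555 genes as higher after training, 2.06% of about 26900 features tested, and all 3 genes are among them. It lists 1.31% as lower and 3.38% in all. Limma passed 113 genes as higher (0.42% of the features tested), among them Dusp1 and Spry4, and 0.201% as lower, 0.621% in all.

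Dusp1, the phosphatase of p38, JNK and ERK, had 6.74, 6.62, 6.84 and 7.09 log2 CPM in rotarod libraries 3, 4, 7 and 8 (the numbers are those of the columns), against 4.59, 4.37, 5.33 and 4.35 in rest libraries 1, 2, 5 and 6. In reads, this was 1545 to 2239 per rotarod library and 283 to 549 per rest library. The trained libraries lay close together, and rest library 5 was higher than the other rest libraries. The difference was 2.16 ± 0.22 (limma adjusted p = 0.00624, n = 4 per group), and 2.39 without rest library 5 (limma adjusted p = 0.00112). Leaving out any 1 of the 8 libraries gave 2.06 to 2.39, and limma passed Dusp1 each time.

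Spry4, the inhibitor upstream of Raf, had 4.83, 4.86, 4.76 and 4.63 log2 CPM in rotarod libraries 3, 4, 7 and 8. Its rest libraries 1, 2, 5 and 6 had 3.72, 3.71, 3.18 and 3.13 log2 CPM, which is 121 to 218 reads. The rest libraries formed a higher pair (columns 1 and 2) and a lower pair (columns 5 and 6), and the trained libraries showed a smaller step in the same direction, columns 3 and 4 lying above columns 7 and 8. The difference was 1.33 ± 0.15 (limma adjusted p = 0.011). Over columns 1 to 4 alone it was 1.13 ± 0.09 and over columns 5 to 8 alone 1.54 ± 0.11. With 2 libraries per group, neither passed limma (adjusted p = 0.192 and 0.331). What the column numbers stand for is not given in the sources used here.

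Dusp4, a nuclear phosphatase of ERK and JNK, had 2.95, 2.99, 2.99 and 3.17 log2 CPM in rotarod libraries 3, 4, 7 and 8, against 2.22, 2.21, 1.30 and 2.05 in rest libraries 1, 2, 5 and 6. Rest library 5 held 32 reads of Dusp4, with a 95% Poisson interval of 21.9 to 45.2, and the other rest libraries held 56 to 76. The trained libraries held 121 to 146 reads. The difference was 1.08 ± 0.20 (limma adjusted p = 0.0638), so Dusp4 did not pass over all 8 libraries. Without rest library 5 the difference was smaller, 0.86, and passed limma (adjusted p = 0.0146). It was 0.75 ± 0.10 over columns 1 to 4 and 1.41 ± 0.28 over columns 5 to 8. The authors' deposited table gives Dusp4 an adjusted p of 5.33e-07.

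**Figure D1:**
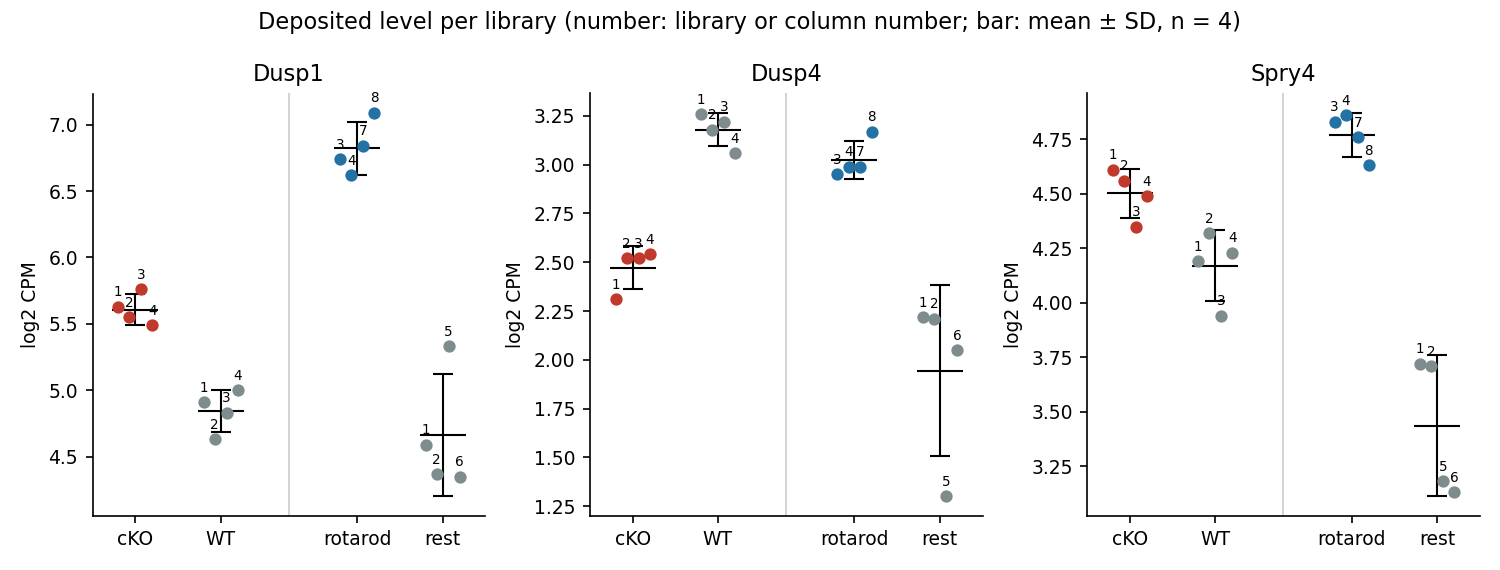
Deposited log2 CPM of Dusp1, Dusp4 and Spry4 in each library, with cKO and WT to the left and rotarod and rest to the right of the line. The 2 tables were normalized separately, dots are libraries, and bars give mean ± SD (n = 4). Within each table the groups do not overlap, and the Dusp4 level is lower in cKO (2.31 to 2.54) than in WT (3.06 to 3.26).

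Rest library 5 was thus the highest rest library for Dusp1 and the lowest for Dusp4. The ratio of Dusp1 to Dusp4 within a library, which does not depend on library size, had a log2 value of 3.79, 3.63, 3.85 and 3.92 in rotarod libraries 3, 4, 7 and 8, against 2.36, 2.16, 4.03 and 2.30 in rest libraries 1, 2, 5 and 6. Rest library 5 exceeded all trained libraries. The difference in this log2 ratio was 1.08 ± 0.44 (exact two-sided permutation p = 0.143, 0.171 after adjustment over the 6 ratios examined). Without rest library 5 it was 1.52 (exact permutation p = 0.0429 after adjustment with the other 5 ratios as they were). The ratio of Dusp1 to Spry4 differed by 0.83 ± 0.36 (exact permutation p = 0.114, adjusted 0.171) and by 1.14 without that library (exact permutation p = 0.0429, adjusted in the same way). The ratio of Dusp4 to Spry4 differed by -0.25 ± 0.19 (exact permutation p = 0.371), with overlapping groups. With 4 libraries per group the smallest p of this test is 0.0286. Without rest library 5 the groups no longer overlapped for Dusp1 to Dusp4 or Dusp1 to Spry4. Their unadjusted p was then the smallest that the test allows. As that library stood out in these same ratios, the p-values without it are a description.

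The other comparison concerns the cerebellar genes whose mRNA differs when Chd4 is deleted. Here the 3 inhibitors moved apart. Dusp1 rose 1.70-fold and Dusp4 was 1.63-fold lower, both past limma. Spry4 was 1.26-fold higher and did not pass limma. In the authors' deposited table Dusp1 and Spry4 are among 2990 genes listed as higher (11% of about 27100 features tested), and Dusp4 is among 2518 listed as lower (9.29%), with 20.3% listed in all. Limma passed 2214 genes as higher (8.17% of the features tested) and 1365 as lower (5.04%), 13.2% in all, so a change in either direction was common in this comparison. The cKO and WT libraries did not overlap for any of the 3 inhibitors, as for 78.0% of the 5508 genes listed, 44.8% higher and 33.2% lower in cKO.

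Dusp1 had 5.63, 5.55, 5.76 and 5.49 log2 CPM in cKO libraries 1 to 4, against 4.91, 4.63, 4.83 and 5.0 in WT libraries 1 to 4. This was 677 to 751 reads per cKO library and 341 to 470 reads per WT library. The groups were 0.48 log2 units apart at their nearest libraries. The difference was 0.76 ± 0.09 (limma adjusted p = 0.00113, n = 4 per genotype). Over libraries 1 and 2 alone it was 0.82 ± 0.12, and over libraries 3 and 4 alone 0.71 ± 0.13.

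Dusp4 had 2.31, 2.52, 2.52 and 2.54 log2 CPM in cKO libraries 1 to 4, against 3.26, 3.18, 3.22 and 3.06 in WT libraries 1 to 4. Each cKO library held 66 to 88 reads of it, and each WT library held 121 to 143. Every cKO library was thus below every WT library, and cKO library 1 was the lowest. Dusp4 fell by 0.71 ± 0.07 (limma adjusted p = 0.000425), and leaving out any 1 of the 8 libraries gave -0.75 to -0.65, each past limma.

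Spry4 had 4.61, 4.56, 4.35 and 4.49 log2 CPM in cKO libraries 1 to 4, against 4.19, 4.32, 3.94 and 4.23 in WT libraries 1 to 4. Its groups came within 0.03 log2 units of each other, cKO library 3 being the nearest to WT library 2. The difference was 0.34 ± 0.09 (limma adjusted p = 0.0531), and the authors' deposited table gives an adjusted p of 4.44e-04. Leaving out 1 library gave 0.26 to 0.39, and limma passed it in 2 of the 8 cases, without cKO library 3 and without WT library 2. Spry4 held 282 to 348 reads in cKO libraries and 236 to 275 in WT libraries. The 95% Poisson interval was 18.0 to 22.8 CPM in cKO library 3 and 17.6 to 22.3 CPM in WT library 2, so these nearest libraries cannot be told apart at this depth.

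**Figure D2:**
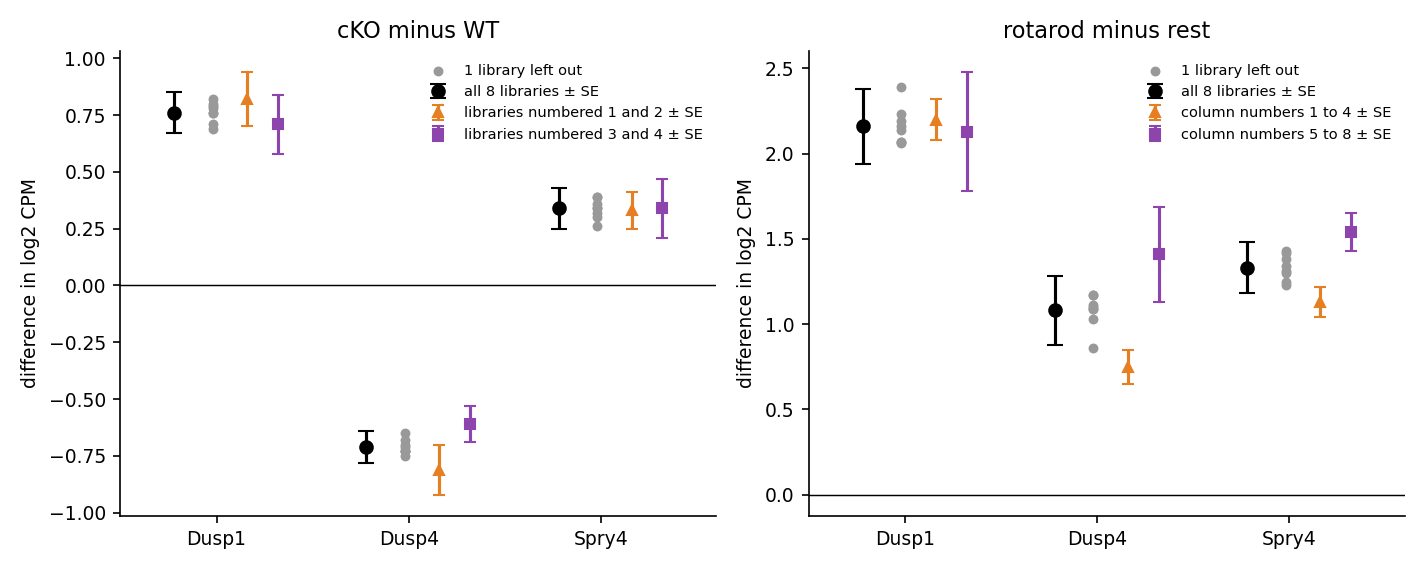
Difference in log2 CPM of each gene, cKO minus WT on the left and rotarod minus rest on the right. Black dots use all 8 libraries, grey dots leave 1 library out, and coloured marks use only the named libraries; error bars are limma's SE. Dusp4 lies below 0 in cKO at every setting shown and above 0 after training at every setting shown.

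Ratios within a library showed the same split in cKO. The log2 ratio of Dusp1 to Dusp4 was 3.32, 3.03, 3.24 and 2.95 in cKO libraries 1 to 4, against 1.65, 1.45, 1.61 and 1.94 in WT libraries 1 to 4, a difference of 1.47 ± 0.13. The log2 ratio of Dusp4 to Spry4 differed by -1.05 ± 0.15 and that of Dusp1 to Spry4 by 0.43 ± 0.16. In each of the 3 ratios the cKO and WT libraries did not overlap. Each had an exact two-sided permutation p of 0.0286, the smallest that 4 against 4 libraries allow, and of 0.0571 after adjustment over the 6 ratios, which does not pass 0.05.

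**Figure D3:**
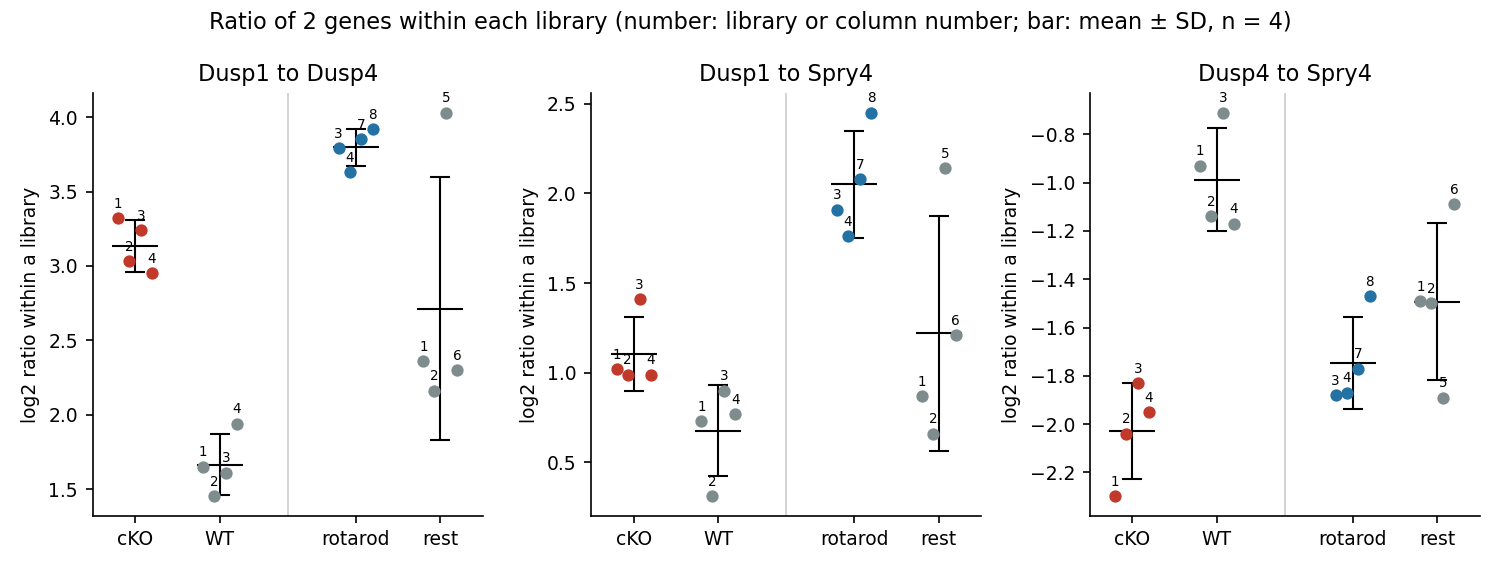
Log2 ratio of 2 of the genes within each library, by group; dots are libraries, bars give mean ± SD (n = 4). Rest library 5 stands at 4.03 for Dusp1 to Dusp4, against 2.16 to 2.36 in the other rest libraries.

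Set in order over the 4 groups, with the reservation that the tables were normalized separately and that levels were not tested across them, Dusp1 averaged 6.82 ± 0.20 log2 CPM in rotarod, 5.61 ± 0.12 in cKO, 4.84 ± 0.16 in WT and 4.66 ± 0.46 in rest libraries (SD, n = 4). WT and rest, the lowest of these, differed by less than the spread of the rest libraries. Spry4 averaged 4.77 ± 0.10 in rotarod, 4.50 ± 0.11 in cKO, 4.17 ± 0.16 in WT and 3.44 ± 0.32 in rest libraries. Dusp4 had another order, with 3.18 ± 0.09 in WT, 3.02 ± 0.10 in rotarod, 2.47 ± 0.11 in cKO and 1.95 ± 0.44 in rest libraries. For Dusp4 and Spry4, every WT library was above every rest library. The share of other genes with such a gap was not counted, and an offset between the 2 tables was not tested. Dusp4 in WT and rotarod libraries overlapped.

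The genes nearest to each inhibitor were found by the root mean square (RMS) difference of their profiles over the 8 libraries of a table, each profile centred on its mean in the rest or WT libraries. After training, Dusp1 was nearest to Fosl2, a Fos family transcription factor (RMS 0.221 log2 units), then to Sytl1 (0.393) and to the orphan nuclear receptor gene Nr4a1 (0.470). Fosl2, with a training difference of 2.12 ± 0.23, was like Dusp1 highest among rest libraries in column 5, at 4.36 log2 CPM. Dusp4 was nearest to Amh, which encodes anti-Müllerian hormone (0.163), to the early growth response factor gene Egr4 (0.178) and to Trib1, a Tribbles pseudokinase gene (0.219). Of these, Amh and Egr4 were lowest among rest libraries in column 5, as Dusp4 was, at 0.79 and 3.38 log2 CPM. Nr4a1 had 4.77, 4.83, 4.19 and 3.93 log2 CPM in rest libraries 1, 2, 5 and 6 and did not share the high value of Dusp1 in column 5. Since nearness was measured over the same 8 libraries, column 5 included, such matches follow in part from the choice of genes. Spry4 was nearest to Eomes, a transcription factor gene of unipolar brush cells (0.206), to Rec114 (0.217) and to Trib1 (0.237).

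In the cKO table Dusp1 was nearest to Timp3, an inhibitor of metalloproteinases (RMS 0.0720 log2 units), Pgam2, a phosphoglycerate mutase gene (0.103), and Mthfd1l, a mitochondrial folate enzyme gene (0.105). Dusp4 was nearest to Ipcef1 (0.0654), the zinc transporter gene Slc39a3 (0.0716) and Arhgef3 (0.0847), which fell by 0.70 ± 0.06, 0.66 ± 0.07 and 0.75 ± 0.07. Spry4 was nearest to Shisa5 (0.0461), the retinoic acid receptor gene Rarb (0.0622) and the cyclin gene Ccne1 (0.0660). None of the nearest genes of an inhibitor in one table was among its nearest in the other. Only genes listed in a table could be chosen from it, and 320 genes are in both, so most could not recur.

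**Figure D4:**
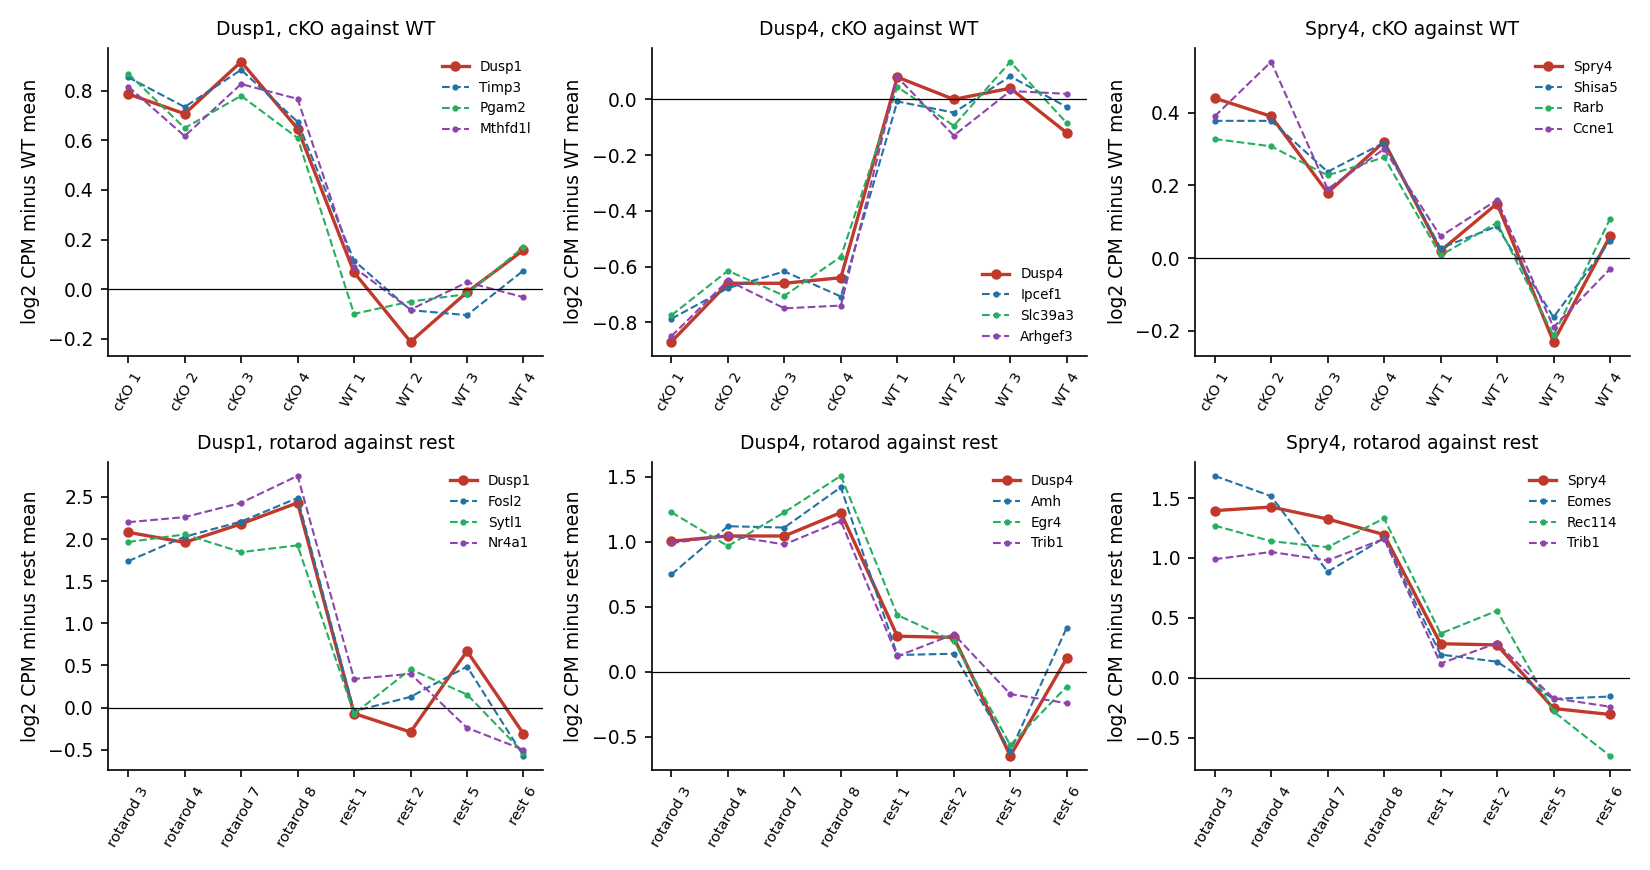
Centred log2 CPM of each inhibitor (red) and its 3 nearest genes over the 8 libraries, cKO and WT above and rotarod and rest below; lines only join points of 1 gene, and libraries of a group have no order. The genes were chosen for their likeness over these same libraries, so their closeness is a description. Nr4a1 is not highest among rest libraries in column 5, where Dusp1 is.

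The rest of the pathway was described with 8 lists that hold 148 genes beside the 3 inhibitors. In the authors' deposited table for training, 18 of them are listed as higher and 0 as lower, beside 2.06% and 1.31% of all features, and limma passed 7 of these 18. Without rest library 5 limma passed 4. For the lists, only this library was left out after training, and only cKO library 1 in cKO. In these counts, the effect of a smaller group and that of the library left out cannot be told apart. The listed ones had a median log2 fold change of 0.75 in the authors' deposited table, against 0.45 for the 555 genes listed as higher and 0.32 for all 908 genes listed, higher and lower together. In the authors' deposited table for cKO, 35 are listed as higher and 22 as lower, beside 11% and 9.29% of all features. Limma passed 23 and 10 of these. The listed ones had a median of 0.25, against 0.20 for all 5508 genes listed. These lists and those further below were chosen with earlier results of these data known. All features were not matched to them in expression level, so the shares are a description. Of 115 cell type markers, 60 are listed in cKO and 8 after training.

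Among 8 other MAP kinase phosphatase genes, training left 2 listed, both higher, and limma passed neither. Dusp5, the ERK phosphatase of the nucleus, differed by 0.59 ± 0.10 (limma adjusted p = 0.0528), and Dusp8, a phosphatase of JNK and p38, by 0.35 ± 0.11. In cKO 4 rose and 1 fell, each past limma. Dusp2 rose by 0.78 ± 0.20, Dusp16 by 0.32 ± 0.07, Dusp8 by 0.23 ± 0.05 and Dusp5 by 0.23 ± 0.06. Dusp7, a cytoplasmic ERK phosphatase, fell by 0.31 ± 0.07. Dusp2 was scarce, with a mean of 0.78 log2 CPM in cKO (limma adjusted p = 0.0392), against 4.67 to 7.92 in cKO for the others. Without cKO library 1, the only library left out for this list in cKO, limma passed 2 of the 4 higher genes and the lower one. The other Sprouty and Spred genes, 6 in all, have none listed after training. In cKO Spry2 alone is listed, with a difference of -0.36 ± 0.12 that did not pass limma (adjusted p = 0.0899).

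Of 16 other inhibitors of Ras and ERK signalling, Errfi1, an inhibitor of the EGF receptor, rose by 0.58 ± 0.07 after training (limma adjusted p = 0.0181). It did not pass without rest library 5, the only library left out for this gene. No other member is listed after training. In cKO 5 are listed, and limma passed 2 of them as higher, among them the Ras GTPase-activating protein gene Rasal1 (0.58 ± 0.13). Errfi1, Rasal2 and Rasa2 differed by -0.18, -0.17 and 0.25, none past limma.

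Of 29 core genes of Ras, Raf, MEK and ERK signalling, 1 is listed after training, a share near the 3.38% of all features. It is the exchange factor gene Sos1, at 0.27 ± 0.07, not past limma. In cKO 6 are listed as higher and 3 as lower. The Ras exchange factor gene Rasgrf1 rose by 0.66 ± 0.06, the scaffold gene Ksr1 by 0.53 ± 0.06 and Mapk3, which encodes an ERK, by 0.49 ± 0.07. Rps6ka1, a ribosomal S6 kinase gene downstream of ERK, fell by 0.51 ± 0.08.

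Of 21 p38 and JNK genes, 1 is listed after training, Map3k6, with a difference of 0.86 ± 0.36 that did not pass limma. In cKO 7 are listed as higher and 1 as lower. Mapkapk3, a kinase activated by p38, rose by 2.96 ± 0.11, the p38 genes Mapk13 and Mapk12 rose by 1.33 ± 0.23 and 1.29 ± 0.07, and Map3k6 differed by 0.76 ± 0.26, not past limma.

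Of 19 growth factor receptor genes, none is listed after training, and 8 are listed as lower and 2 as higher in cKO. Limma passed 4 of the lower ones, with Pdgfra and Erbb4 each down by 0.39 ± 0.08, and 1 higher one, Erbb3, up by 0.68 ± 0.11. Pdgfra is also in the oligodendrocyte lineage list and Kit, another of the 4, in the interneuron list. Met differed by -0.90 ± 0.30, not past limma. Of 24 ligand genes, Bdnf, a neurotrophin, rose by 0.73 ± 0.11 after training (limma adjusted p = 0.0364). It did not pass limma without rest library 5, again the only library left out. Gdnf differed by 1.59 ± 0.32 after training (limma adjusted p = 0.0877). In cKO Fgf13 and Tgfa rose by 0.63 ± 0.07 and 0.54 ± 0.10, Pdgfa fell by 0.96 ± 0.10, and Fgf5 differed by 0.89 ± 0.28, not past limma.

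Of 25 transcription factor genes induced or used by ERK, 11 are listed as higher and 0 as lower after training, 5 of them past limma, and 4 without rest library 5. Fosb rose by 4.42 ± 0.29, Fos by 4.03 ± 0.22 and Fosl2 by 2.12 ± 0.23, and Egr3 differed by 1.41 ± 0.29 (limma adjusted p = 0.0904). In cKO 9 are listed as higher and 3 as lower, and limma passed 5 and 2. Atf3 rose by 1.40 ± 0.21 and Elk3 by 0.91 ± 0.11, Egr4 fell by 0.64 ± 0.13, and Fos differed by 1.11 ± 0.36 (limma adjusted p = 0.0875). The 2 comparisons use separate libraries, and 320 genes are in both tables, 9 of them in the 8 lists. Of these 9, 7 are higher in both of the authors' deposited tables (Dusp5, Dusp8, Map3k6, Fos, Fosl2, Egr1 and Ier2), as are 23.1% of the 320. All 9 are higher after training, which is not so for all of the 320. Among those higher after training, 74 are also higher in cKO and 131 are lower there, which is the closer comparison. Of the 7, Ier2 passed limma in both comparisons. Egr4 and Errfi1 are, like Dusp4, higher after training and lower in cKO in the authors' deposited tables, as are 40.9% of the 320. Limma passed Egr4 in cKO alone and Errfi1 after training alone.

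**Figure D5:**
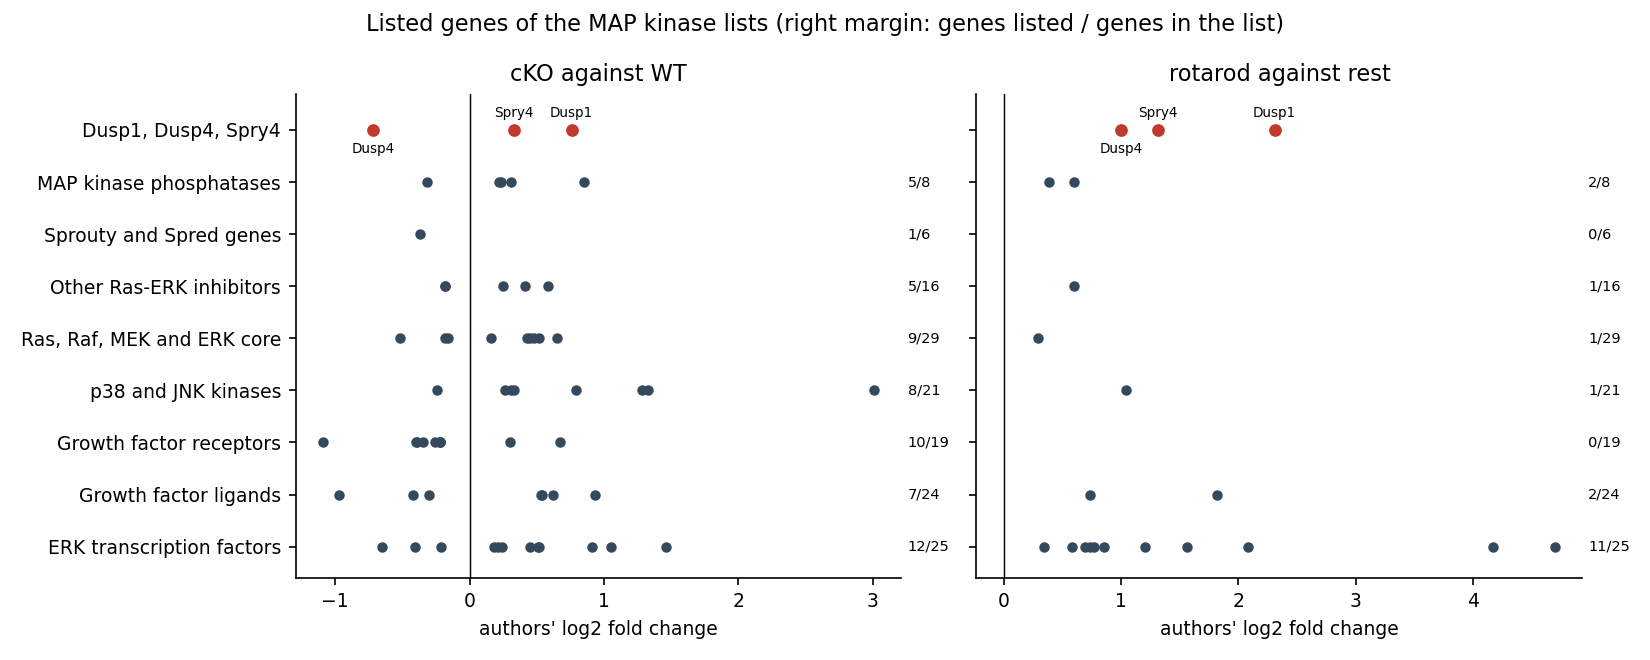
Log2 fold change in the authors' deposited tables of each listed gene of the 8 lists, with the 3 inhibitors in red on top; cKO against WT on the left and rotarod against rest on the right. After training all 18 listed genes lie above 0, and in cKO 35 lie above and 22 below 0.

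Other genes moved with these comparisons. After training, 11 of 16 glucocorticoid-responsive genes, which stress hormones induce, are listed as higher and 0 as lower, beside 2.06% and 1.31% of all features. Limma passed 3 of them, and 2 without rest library 5. Per1 rose by 1.19 ± 0.11, and Hif3a differed by 1.13 ± 0.32, not past limma (adjusted p = 0.267). The summed level of the 11 listed genes was 735 to 831 CPM in rotarod libraries and 354 to 484 CPM in rest libraries. This gap follows from their being listed as higher, and the unlisted genes have no value here. Errfi1 and Map3k6 are in this list and in the pathway lists. The part of this in the training values of the inhibitors was not tested. In cKO 5 of the 16 are listed, 4 lower and 1 higher, with summed levels of 569 to 721 CPM in cKO and 684 to 828 CPM in WT.

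Of 115 cell type markers in 10 lists, 53 are listed as lower in cKO, 7 as higher and 55 not at all, and limma passed 23 as lower and 6 as higher. Over all features, 9.29% are listed as lower and 11% as higher. Of the marker lists with more than 1 listed gene, the summed levels did not overlap for Purkinje cells (10 of 12 listed, 7390 to 7910 CPM in cKO and 8700 to 9210 CPM in WT), inhibitory interneurons (10 of 12, 1050 to 1150 and 1180 to 1300), astrocytes and Bergmann glia (5 of 12, 3680 to 3980 and 4300 to 4480), vascular cells (6 of 14, 141 to 160 and 176 to 209), and meninges and fibroblasts (7 of 11, 282 to 299 and 328 to 427). They overlapped for the oligodendrocyte lineage (8 of 14, 5050 to 5340 and 5160 to 6900), choroid plexus (3 of 7), blood (2 of 8) and granule neurons (8 of 14, 4620 to 4720 and 4520 to 4920). None of the listed markers was at 0 in any library, and unlisted markers have no value here. The sums thus hold only markers that were listed because cKO and WT differed. Their separation follows in part from that choice and is a description. The part of these markers in the genotype values of the inhibitors was not tested. After training 8 markers are listed, 4 of them of meninges and fibroblasts and listed as lower, and limma passed none of the 8.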

How the data were processed

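Per the submitters' processing notes, the tools were Bowtie and edgeR and the build was mm9; the sources used here give no version, counting tool, filter or strand setting. Each table holds the deposited log2 CPM per library, with a prior count, and the authors' log2 fold change, likelihood ratio score, p-value and adjusted p-value, per the file headers. Lines repeated per Entrez identifier were removed (5557 and 913 lines became 5508 and 908 genes). Adjusted p times rank over p gave the features tested. After subtraction of the floor, all (100%) of the values up to 20 reads were within 0.1 of a whole read, which gave reads and depth. Intervals are exact Poisson 95% intervals and cover counting error only.

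Limma 3.58.1 (R 4.3.3) was fitted to every gene of a table, with no added pseudocount and no block, and its p-values were adjusted by Benjamini and Hochberg's method across the features tested; unlisted genes count as not called, and the variance prior rests on called genes. The fit was also run on data simulated with the spread of each table and 200 changed genes. It found 60% (cKO) and 75% (training) of changes of 0.5, and 92% of changes of 1 in both. Of the genes it passed, 1.3% and 5.65% were unchanged. That run adjusted over the listed genes alone, so it does not give the power of the fits used here. Ratios were tested by exact permutation (scipy 1.17.1). The 4 libraries of a group are separate samples in the labels, so p-values measure the spread between these samples. Rotarod columns carry numbers that match no sample title and are known by group alone.

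The members and lists were chosen with earlier results of these data known. Named genes are the inhibitors, their 3 nearest genes per table, up to 4 listed genes of a pathway list and 2 of another list by the authors' fold change, Chd4 and Fos; any others were picked with their values in view. One gene that this rule names is not reported here. Alternatives were each library left out, subsets of libraries, a replicate block, a variance trend, pseudocounts of 1 and 5 CPM, an abundance limit, centring, and stricter thresholds. For the lists, only rest library 5 or cKO library 1 was left out. The region lists on mm9 and the Sync-TRAP values were not used.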

Additional observations from a re-analysis of the deposited data

Results flagged for a closer look

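In 64 groups of 4 values, the gap between the farthest library and its neighbour was set against the whole range of the group. In 5 of them it exceeded Dixon's 95% critical value for 4 samples, where chance alone gives about 1 group in 20. Dusp4 in cKO library 1 was 2.31 log2 CPM, against 2.52 to 2.54 in the other cKO libraries. Chd4 was highest in the same cKO library, at 8.06 log2 CPM, against 7.90 in the other cKO libraries. The log2 ratio of Dusp1 to Spry4 was 1.41 in cKO library 3, against 0.99 to 1.02 in the other cKO libraries. In rest library 5 the log2 ratio of Dusp1 to Dusp4 was 4.03, against 2.16 to 2.36 in the other rest libraries, and Fos was 3.23 log2 CPM, against 2.32 to 2.47.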

How the results depend on the processing

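Leaving out 1 library at a time, the cKO minus WT differences ranged from 0.69 to 0.82 for Dusp1, -0.75 to -0.65 for Dusp4 and 0.26 to 0.39 for Spry4, and the rotarod minus rest differences from 2.06 to 2.39, 0.86 to 1.17 and 1.23 to 1.43. The ratios of Dusp1 to Dusp4, Dusp1 to Spry4 and Dusp4 to Spry4 ranged from 1.40 to 1.56, 0.30 to 0.50 and -1.11 to -0.95 in cKO, and from 0.90 to 1.52, 0.64 to 1.14 and -0.39 to -0.12 after training. No alternative run turned a direction. Within libraries 1 and 2, and within 3 and 4, Dusp1 (0.82 and 0.71) and Dusp4 (-0.81 and -0.61) no longer passed limma, and neither did Dusp1 (2.20 and 2.13) and Spry4 (1.13 and 1.54) within columns 1 to 4 and 5 to 8, a split chosen after seeing the data; each of these fits has fewer samples. Spry4 in cKO passed limma with a variance trend (0.34, adjusted p = 0.0222), with pseudocounts of 1 and 5 CPM (0.32 and 0.27), and with the replicate block (0.34 ± 0.06, adjusted p = 0.0281). Dusp4 after training passed limma with the trend (1.08, adjusted p = 0.0249) and the pseudocounts (0.90 and 0.56). The cause was not tested. The unadjusted exact permutation test gave p = 0.0286 for both, the smallest it allows. Any gene whose groups do not overlap gets this p, which holds for 78.0% of the listed genes in cKO and 84.9% after training. It is thus not counted as a pass. The block used the shared numbers 1 to 4 of cKO and WT libraries, whose deviations correlated at 0.0983, 0.160, 0.131 and 0.0846; 3 of 4 libraries matched their own number best. As not all exceed 0.1, the numbers were not taken as pairing. No paired analysis was possible for training because the columns carry no numbers from the labels; a block of columns 1 to 4 against 5 to 8, chosen after seeing the data, gave adjusted p = 0.008 for Dusp1, 0.0743 for Dusp4 and 0.0048 for Spry4 by limma and changed no call. Centring libraries on the median of listed genes, which moved by 0.098 in cKO and 0.087 after training, gave Spry4 0.24 in cKO, not past limma, and changed no member's call. Of the pathway genes 35 higher and 22 lower in cKO, 14 lower ones had an adjusted p under 0.01, 18 and 4 reached an absolute log2 fold change of 0.5, and 23 and 10 passed limma; of 18 after training, 7 did, and 4 without rest library 5, an alternative chosen after seeing the data. Dusp4 and Spry4 lie below the median abundance and have no value under that limit.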
